A study of Mus musculus with 8 samples.

Results

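Immune checkpoint ligands are surface or secreted proteins that restrain or tune T cells, and 7 of them were followed here by name across every library: Cd274, Pdcd1lg2, Lgals9, Tnfrsf14, Cd276, Pvr and Nectin2. The count files held 51912 gene identifiers, all 7 genes were among them, and all 7 were among the 16512 genes that passed the filter on low counts. RNA was sequenced from ear epidermal sheets of 8 mice, 4 in each group, each library from a different animal. Both groups carried floxed A20 alleles (A20F/F), were 8 weeks old, received 1 mg of tamoxifen by intraperitoneal injection on each of 2 consecutive days, and were taken on day 7 from the first of these. The A20KIKO mice were Krt5-CreERT2+, with a tamoxifen-inducible Cre driven by the promoter of the basal keratinocyte gene Krt5, and the A20WT mice were Krt5-CreERT2-. Since Cre and its action on A20 came together in these groups, they cannot be told apart. The labels used here state neither sex nor strain. A20KIKO and A20WT stand for the libraries so labelled.

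A checkpoint ligand acts when it meets a receptor on a T cell. Cd274 (PD-L1) and Pdcd1lg2 (PD-L2) bind PD-1, Lgals9 (galectin-9) is a ligand of Tim-3, Tnfrsf14 (HVEM) engages Btla and Cd160, Pvr (CD155) and Nectin2 (CD112) bind the inhibitory receptor Tigit and the activating receptor Cd226, and Cd276 (B7-H3) is a member of the B7 family whose receptor on T cells is not settled. PD-L1 is a classical target of interferon signalling through Irf1. The epidermis of the mouse holds resident T cells and Langerhans cells beside its keratinocytes, and macrophages and dendritic cells also make several of these ligands.

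Summed counts per library ranged from 40451075 to 89624373. Levels are given in CPM, counts per 1000000 counts of the scaled library. Tnfaip3, which encodes A20, had 74.0 ± 17.3 CPM in A20KIKO and 16.5 ± 2.65 CPM in A20WT (SD, n = 4 each), so the gene named in the label was higher where the label names its deletion. The files give 1 count for the whole gene, which does not test the deletion of single exons. A20KIKO mouse 4 stood apart from the other A20KIKO libraries in the summed level of 8 neutrophil markers, at 176 CPM against 33.3 to 44.7 CPM in the other 7 libraries. All 10 keratinocyte markers were present, with summed levels of 46827 to 59158 CPM in A20KIKO and 45304 to 63474 CPM in A20WT.

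With edgeR's quasi-likelihood test (called at an adjusted p under 0.05), 2 of the 7 ligands rose in A20KIKO and 0 fell. Of all tested genes, 3.49% were called in this way, 2.43% higher and 1.06% lower in A20KIKO. The risen ligands were Cd274 and Lgals9, both about 3-fold. In Tnfrsf14 and Cd276 every A20KIKO library also lay above every A20WT library, but neither passed the test after adjustment. That made 4 of 7 ligands whose groups did not overlap with A20KIKO on top, where 10.6% of all tested genes had groups that did not overlap, 5.78% with A20KIKO higher and 4.79% with A20KIKO lower. Of these ligands, Tnfrsf14 passed the filter on low counts through its A20KIKO libraries alone. Its separation therefore came with the filter and is not separate evidence of a rise. Pvr, Nectin2 and Pdcd1lg2 overlapped between the groups. The median log2 change of the 7, Tnfrsf14 included, was 0.54, and that of all tested genes was -0.0062. The median of the 7 is therefore not free of the filter.

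**Figure D1:**
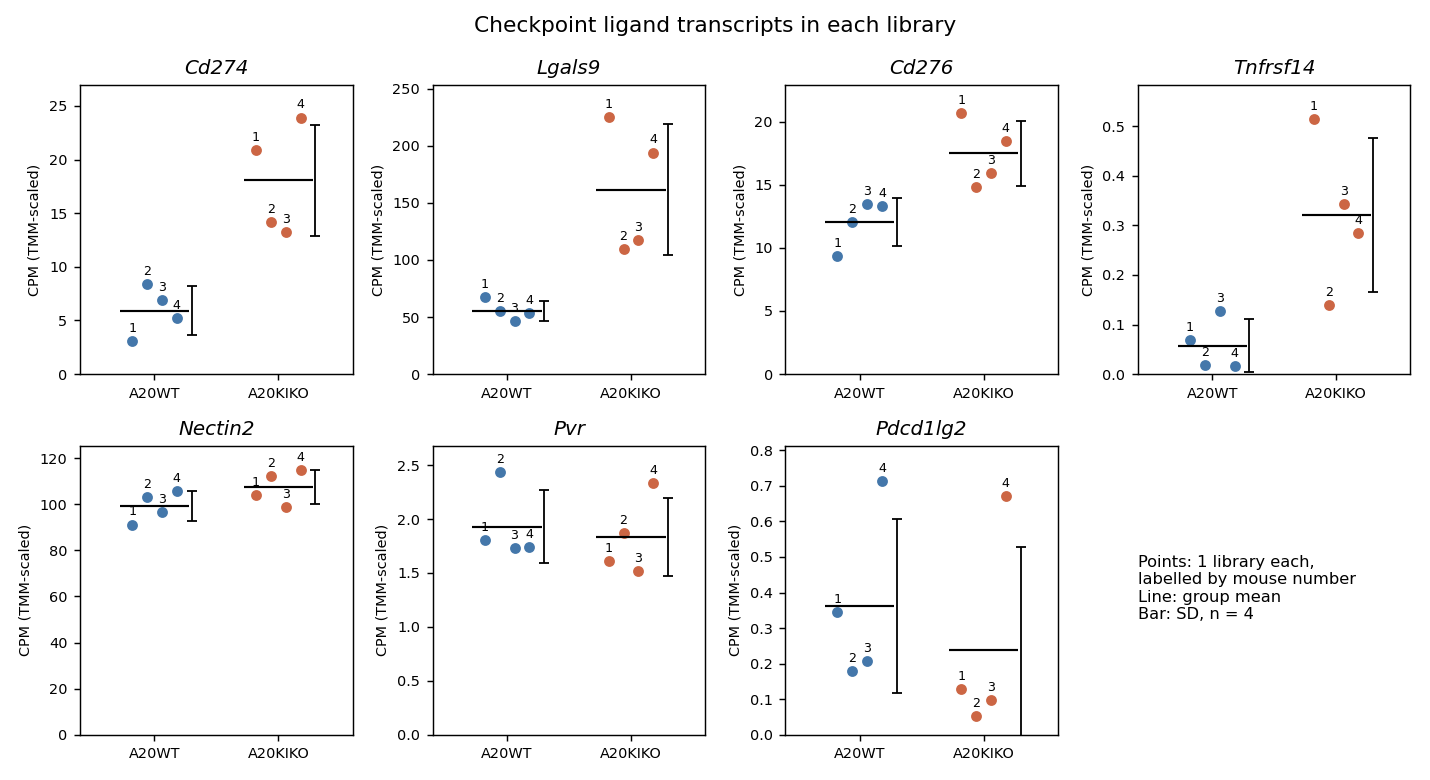
Normalised counts (CPM, linear axes starting at 0) of the 7 ligands in each of the 8 libraries, with points numbered by mouse, a line at the group mean and a bar for the SD (n = 4, drawn no lower than 0). The A20KIKO points of Cd274, Lgals9, Cd276 and Tnfrsf14 all lie above the A20WT points, and those of Nectin2, Pvr and Pdcd1lg2 overlap with them.

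Cd274 (ENSMUSG00000016496) lies on chromosome 19 at 29367455 to 29388095 on the plus strand of GRCm38, next to Pdcd1lg2 (ENSMUSG00000016498, 29410919 to 29471161). Its level was 20.9, 14.2, 13.3 and 23.9 CPM in A20KIKO mice 1 to 4. In A20WT mice 1 to 4 it was 3.12, 8.43, 6.87 and 5.22 CPM. The lowest A20KIKO library was thus above the highest A20WT library, and within A20KIKO mice 1 and 4 were higher than mice 2 and 3. The means were 18.1 ± 5.18 and 5.91 ± 2.28 CPM (SD, n = 4 each), or 3.07-fold up, with a log2 change of 1.62 (SE 0.29, approximate 95% interval 0.90 to 2.33) and an edgeR adjusted p = 0.0102. It was called in 19 of 19 alternative settings, with adjusted p of 0.00969 to 0.0413 when a single library was left out. The level rests on 271 to 2101 counts per library. An annotated antisense gene, AC119228.1, shares exon sequence with Cd274, and its reads were not analysed here. Libraries without strand information cannot separate such reads.

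Because Cd274 and Lgals9 are the ligands that rose, the sequence just upstream of each is shown. The 250 bases before the annotated start are from RefSeq on GRCm38.p6, read 5′ to 3′ on the gene's strand, chr19:29367188-29367437 (plus strand) for Cd274 and chr11:78984925-78985174 (minus strand) for Lgals9. Capitals mark matches, on either strand, to an interferon-stimulated response element (GAAA, any 2 bases, GAAA) or an NF-kB site (GGGA, any 4 bases, CC), and a GAS element, an interferon-gamma response motif (TTC, any 3 bases, GAA), was searched as well.
Cd274: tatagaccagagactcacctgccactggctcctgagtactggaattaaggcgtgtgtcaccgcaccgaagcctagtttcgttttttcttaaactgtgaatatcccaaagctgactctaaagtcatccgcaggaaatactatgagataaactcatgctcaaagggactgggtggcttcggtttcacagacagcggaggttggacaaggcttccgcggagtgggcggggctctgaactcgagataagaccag
Lgals9: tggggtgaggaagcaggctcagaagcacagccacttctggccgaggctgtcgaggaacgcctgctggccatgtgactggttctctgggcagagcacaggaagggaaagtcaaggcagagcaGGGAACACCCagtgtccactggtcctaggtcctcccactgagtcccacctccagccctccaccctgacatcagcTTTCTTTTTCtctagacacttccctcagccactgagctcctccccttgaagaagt
The window searched ran from 250 bases before to 50 bases after the start. Over 32851 RefSeq promoter windows of 300 bases, 3.44% held the interferon element, 8.30% the GAS element and 20.7% the NF-kB letters. Cd274 held none of the 3 in this window. Lgals9 held 2 matches to the interferon element, at 55 to 46 bases before the start (GAAAAAGAAA, on the opposite strand) and again after the start, and 1 NF-kB match at 129 to 120 bases before it (GGGAACACCC). Of the other ligands, Tnfrsf14 held 1 match to the interferon element (GAAAATGAAA, 64 to 55 bases before the start) and 1 to the NF-kB letters, Pdcd1lg2 and Nectin2 held 1 NF-kB match each, and Cd276 held none. Pvr was not searched. No 2 matches in the ligand windows overlap, and a match is a run of letters, not a measured binding site.

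Pdcd1lg2, the other PD-1 ligand, was close to the limit of detection. It had 0.129, 0.0519, 0.0980 and 0.672 CPM in A20KIKO mice 1 to 4 and 0.346, 0.180, 0.209 and 0.714 CPM in A20WT mice 1 to 4. Mouse 4 was highest in each group, and the groups overlapped. These levels rest on 3 to 59 counts per A20KIKO library and 10 to 46 per A20WT library. The log2 change was -0.54 (SE 0.74, edgeR adjusted p = 0.804), with an approximate 95% interval of -2.34 to 1.25, which holds changes of either sign. The estimate moved with single libraries, to -1.92 without A20KIKO mouse 4 (adjusted p = 0.215) and to -0.0038 without A20WT mouse 4. An antisense gene in the same span, A930007I19Rik, had 21 to 127 counts per library and shares no exon sequence with it. Within a library the log2 ratio of Cd274 to Pdcd1lg2 counts was 6.92 ± 1.25 in A20KIKO and 4.16 ± 1.33 in A20WT (SD, n = 4 each). These ratios are not corrected for length and compare the groups, not the genes. The groups overlapped. The difference of 2.76 had p = 0.0571 in a two-sided exact permutation test over 70 splits (adjusted p = 0.114 over 2 ratios tested, smallest possible p 0.0286).

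Lgals9 (ENSMUSG00000001123, chromosome 11, 78962974 to 78984946, minus strand of GRCm38) encodes galectin-9, a galectin with a pair of sugar-binding domains. It had 226, 110, 117 and 194 CPM in A20KIKO mice 1 to 4. The A20WT mice had 67.2, 55.1, 46.2 and 53.7 CPM. As for Cd274, mice 1 and 4 were the high A20KIKO libraries, and the groups did not overlap. The means were 162 ± 57.3 and 55.6 ± 8.69 CPM (SD, n = 4 each), or 2.91-fold up, with a log2 change of 1.54 (SE 0.23, approximate 95% interval 0.98 to 2.10) and an edgeR adjusted p = 0.00329. It was called in 19 of 19 alternative settings, with adjusted p of 0.00103 to 0.0326 when a single library was left out.

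Other galectins did not change with it past the test. A list of 8 genes held the other galectins and Lgals3bp, 7 of these were tested, 1 rose and 0 fell, with a median log2 change of 0.06. Higher in every A20KIKO library were 2 of the 7, Lgals3bp among them, and lower 0. Over all tested genes these shares were 5.78% and 4.79%. The gene that rose was Lgals3bp, a secreted glycoprotein that binds galectins and is not itself a galectin. It went from 10.6 ± 0.854 to 67.8 ± 32.4 CPM (SD, n = 4 each), or 6.39-fold up (edgeR log2 change 2.68 with SE 0.32, adjusted p = 0.00191).

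Tnfrsf14 (ENSMUSG00000042333, chromosome 4, 154921933 to 154928563), the HVEM receptor of the TNF receptor family, was rare in the sheets. It had 0.515, 0.138, 0.343 and 0.285 CPM in A20KIKO mice 1 to 4 and 0.0691, 0.0180, 0.128 and 0.0155 CPM in A20WT mice 1 to 4. Every A20KIKO library was above every A20WT library, although A20KIKO mouse 2 and A20WT mouse 3 nearly met. The gene passed the filter on low counts through the A20KIKO libraries alone, so this separation came with the filter. The 8 levels rest on 91 counts in all of A20KIKO and 19 in all of A20WT, and on 1 count in each of 2 A20WT libraries. The log2 change was 2.37 (SE 0.67, approximate 95% interval 0.72 to 4.02), with an unadjusted p = 0.00423 and an edgeR adjusted p = 0.0876. With a library left out it was 2.09 to 3.07 (adjusted p 0.0725 to 0.200), highest without A20WT mouse 3, and without A20KIKO mouse 1 or 4 the gene did not pass the filter. DESeq2, which called 4.41% of all genes higher, gave an adjusted p = 0.0404. A list of 6 HVEM partners and lymphotoxin genes held 4 tested genes, of which 0 rose and 0 fell. Tnfsf14 and Btla of this list did not pass the filter on low counts. Ltbr, the receptor of lymphotoxin beta, had 59.9 ± 5.34 and 57.3 ± 4.55 CPM in A20KIKO and A20WT (SD, n = 4 each), and its ligand chain Ltb had 5.69 ± 2.33 and 4.02 ± 1.34 CPM (edgeR adjusted p = 0.852 and 0.488).

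Cd276 (ENSMUSG00000035914, chromosome 9, 58524298 to 58555437) had 20.6, 14.8, 15.9 and 18.5 CPM in A20KIKO mice 1 to 4. In A20WT mice 1 to 4 it had 9.35, 12.0, 13.5 and 13.3 CPM. The gap between the lowest A20KIKO and the highest A20WT library was small, and mice 1 and 4 were again the higher A20KIKO libraries. The means were 17.5 ± 2.60 and 12.0 ± 1.90 CPM (SD, n = 4 each), a ratio of 1.45 (log2 change 0.54, SE 0.16, approximate 95% interval 0.16 to 0.92). This did not pass edgeR's test (adjusted p = 0.0960) and had an adjusted p = 0.0253 with DESeq2. Gm10657, on the opposite strand with shared exon sequence, had 2 to 37 counts per library. The level of Cd276 rests on 650 to 1765 counts per library.

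The ligands of Tigit and Cd226 showed no change past the test. Nectin2 (ENSMUSG00000062300, chromosome 7, 19716644 to 19750483), an adhesion molecule of epithelial junctions, had 104, 112, 98.9 and 115 CPM in A20KIKO mice 1 to 4 and 91.2, 103, 96.6 and 106 CPM in A20WT mice 1 to 4. These groups overlapped. Its log2 change was 0.12 (SE 0.10, edgeR adjusted p = 0.654), and the approximate 95% interval of -0.12 to 0.36 holds no change as large as those of Cd274 or Lgals9. Pvr (ENSMUSG00000040511, chromosome 7, 19903578 to 19921160) had 1.61, 1.87, 1.52 and 2.33 CPM in A20KIKO mice 1 to 4. In the A20WT mice it had 1.81, 2.43, 1.73 and 1.74 CPM. Its log2 change was -0.07 (SE 0.24, edgeR adjusted p = 0.941, approximate 95% interval -0.65 to 0.52), and the sign turned when A20KIKO mouse 3 (0.011) or A20WT mouse 2 (0.064) was left out. The log2 ratio of Pvr to Nectin2 counts was -5.89 ± 0.188 in A20KIKO and -5.70 ± 0.224 in A20WT (SD, n = 4 each), a difference of -0.19 (two-sided exact permutation p = 0.257, adjusted p = 0.257 over 2 ratios). Among 5 other tested nectins and partners 0 rose and 0 fell, with a median log2 change of 0.09. Nectin4, another epidermal nectin, had 429 ± 17.9 and 404 ± 42.6 CPM, and Afdn, which ties nectins to actin, had 124 ± 10.9 and 142 ± 15.3 CPM in A20KIKO and A20WT (SD, n = 4 each).

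To order the ligands by level, CPM was divided by exon length and given per kb of merged exons. In A20WT the order was Nectin2 (28.4 ± 1.89), Lgals9 (26.0 ± 4.06), Cd276 (3.29 ± 0.520), Cd274 (1.63 ± 0.628), Pvr (0.315 ± 0.0554), Pdcd1lg2 (0.185 ± 0.125) and Tnfrsf14 (0.0400 ± 0.0367 CPM per kb, SD, n = 4 each). Nectin2 and Lgals9 overlapped across A20WT libraries, as did Pvr and Pdcd1lg2. The other neighbours in the order did not. In A20KIKO Lgals9 came first, at 75.6 ± 26.8 CPM per kb, ahead of Nectin2 at 30.8 ± 2.11 with no overlap. Cd274 there reached 4.99 ± 1.43 CPM per kb and overlapped with Cd276 at 4.78 ± 0.711. In A20WT Cd276 had lain 2.02-fold above Cd274 without overlap. The lowest places were held by Pvr (0.300 ± 0.0596), Tnfrsf14 (0.223 ± 0.108) and Pdcd1lg2 (0.121 ± 0.148 CPM per kb), each overlapping with the next. With the length of the longest transcript the order in each group was the same, but Pvr then no longer overlapped with Pdcd1lg2 in A20WT or with Tnfrsf14 in A20KIKO.

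**Figure D2:**
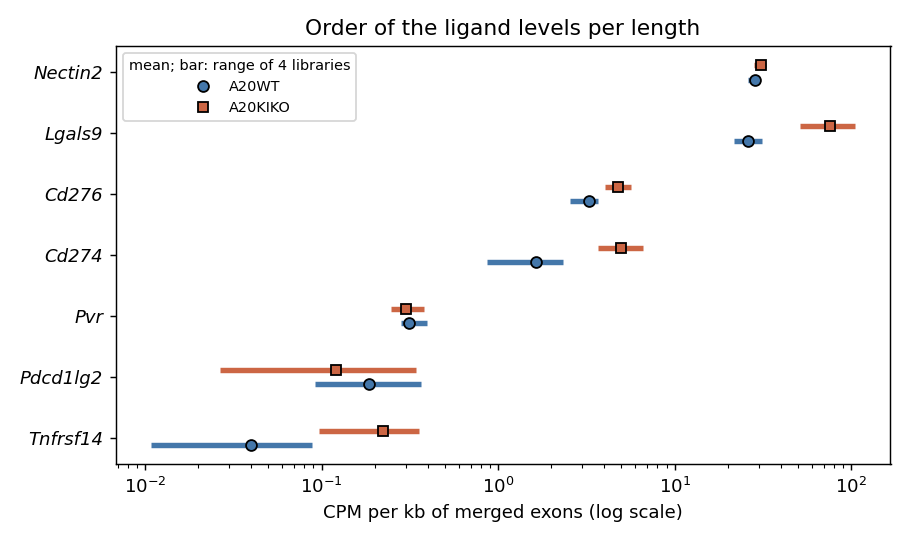
CPM per kb of merged exons on a log axis for the 7 ligands, with circles (A20WT) and squares (A20KIKO) at the mean of 4 libraries and bars over their range. Nectin2 and Lgals9 lie at 21.6 CPM per kb or more in both groups, Cd276 and Cd274 between 0.862 and 6.60, and Pvr, Pdcd1lg2 and Tnfrsf14 at 0.397 or less.

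Other ligands of T cell co-signalling moved in part. Of 15 tested genes in a list of 21 further B7, butyrophilin and related ligands, 2 rose and 0 fell, with a median log2 change of 0.56. Higher in every A20KIKO library were 6 of the 15, where this held in 5.78% of all tested genes. Of these 6, Tnfsf4 passed the filter on low counts through A20KIKO alone, so its separation came with the filter. The list median of 0.56 includes Tnfsf4. The level of Tnfsf4, named after it was seen, was 0.383 ± 0.245 CPM in A20KIKO and 0.0261 ± 0.0522 CPM in A20WT (SD, n = 4 each). Cd86, the ligand of Cd28 and Ctla4, had 8.49 ± 1.61 CPM in A20KIKO and 4.40 ± 0.901 CPM in A20WT (SD, n = 4 each), with a log2 change of 0.95 (SE 0.20) and an edgeR adjusted p = 0.0188. Leaving out A20KIKO mouse 1, A20KIKO mouse 4 or A20WT mouse 3 gave an adjusted p of 0.0575 to 0.0790. Icosl, the ligand of Icos, had 3.05 ± 0.783 CPM in A20KIKO and 1.07 ± 0.461 CPM in A20WT (SD, n = 4 each), with a log2 change of 1.52 (SE 0.32) and an edgeR adjusted p = 0.0192. Here the adjusted p was 0.0525 to 0.0724 when A20KIKO mouse 1, A20KIKO mouse 4, A20WT mouse 2 or A20WT mouse 3 was left out, and 0.0653 in lane 1 alone. Of 14 ligands of the epidermal T cells (Skint genes, H60c, Cxadr, Plxnb2 and Il15), 0 rose and 0 fell, and the median log2 change was -0.22. Where 4.79% of all tested genes lay lower in every A20KIKO library, 2 of these ligands did. These were Skint2, with 7.15 ± 1.66 CPM in A20KIKO and 11.5 ± 0.338 CPM in A20WT (edgeR adjusted p = 0.0514), and Skint7, with 1.28 ± 0.352 and 2.39 ± 0.387 CPM (adjusted p = 0.107), named after their values were seen. Plxnb2 had 208 ± 17.6 and 202 ± 50.2 CPM and Skint9 had 156 ± 23.2 and 166 ± 33.2 CPM in A20KIKO and A20WT (SD, n = 4 each).

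On the receptor side, 10 of 15 genes were tested, 1 rose and 0 fell, with a median log2 change of 0.45. Havcr2, which encodes Tim-3, the receptor of galectin-9, had 7.86, 4.69, 6.49 and 6.11 CPM in A20KIKO mice 1 to 4 and 2.26, 2.63, 4.06 and 3.57 CPM in A20WT mice 1 to 4. These groups did not overlap. The means were 6.29 ± 1.30 and 3.13 ± 0.830 CPM (SD, n = 4 each), with a log2 change of 1.01 (SE 0.23) and an edgeR adjusted p = 0.0321. This call was lost in 6 of the 8 fits that left out a library (0.0601 to 0.130), all but those omitting A20KIKO mouse 2 or A20WT mouse 3, and in lane 2 alone (0.0648). Pdcd1, Btla, Tigit, Cd226 and Pvrig did not pass the filter on low counts, so the receptors of Cd274, Tnfrsf14, Pvr and Nectin2 could mostly not be compared. Of the tested receptors, 1 lay higher in every A20KIKO library (Havcr2) and 1 lower (Rgmb). Named after their values were seen, Rgmb had 82.2 ± 8.45 and 108 ± 10.1 CPM in A20KIKO and A20WT (SD, n = 4 each, edgeR adjusted p = 0.0861). Cd160 and Cd96 had log2 changes of 0.21 and -0.25 (edgeR adjusted p = 0.857 and 0.488).

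In a list of interferon and NF-kB signalling genes upstream of Cd274, some interferon genes rose. Of 16 genes, 5 rose and 0 fell, with a median log2 change of 0.33. Higher in every A20KIKO library were 8 of the 16 and lower 0, where 5.78% and 4.79% of all tested genes were. All 5 that rose belong to interferon signalling. The list held few NF-kB genes, none of them called, so it cannot compare the pathways. Irf1, an interferon-induced transcription factor, had 67.4, 42.4, 52.7 and 78.6 CPM in A20KIKO mice 1 to 4 and 11.5, 14.7, 16.7 and 19.7 CPM in A20WT mice 1 to 4 (edgeR log2 change 1.95 with SE 0.21, adjusted p = 0.00058). Irf9 and Stat2, transcription factors of the type I interferon response, rose 2.69-fold and 3.21-fold (edgeR adjusted p = 0.000592 and 0.00184). Mice 1 and 4 were the higher A20KIKO libraries for these 3 genes. The other risen genes were the interferon-gamma receptor chains Ifngr1 and Ifngr2, named after their values were seen (log2 change 0.56 and 0.52, edgeR adjusted p = 0.0142 and 0.0492). Ifngr1 had an adjusted p = 0.0585 without A20KIKO mouse 1 and 0.0575 without A20WT mouse 4, and Ifngr2 had 0.0596 to 0.162 without any single library except A20KIKO mouse 2. Ifngr2 was called in 7 of the 19 alternative settings, and its adjusted p was 0.0511 to 0.0729 with upper-quartile factors, the 5 CPM filter, limma-voom, non-robust dispersions and lane 2 alone. Of 10 genes of PD-L1 protein stability and trafficking, 0 rose and 0 fell, with a median log2 change of 0.04. Cmtm6, which keeps PD-L1 from degradation, had 348 ± 11.2 and 310 ± 48.8 CPM, and Spop, a ubiquitin ligase adaptor, had 242 ± 16.6 and 237 ± 21.2 CPM in A20KIKO and A20WT (SD, n = 4 each).

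**Figure D3:**
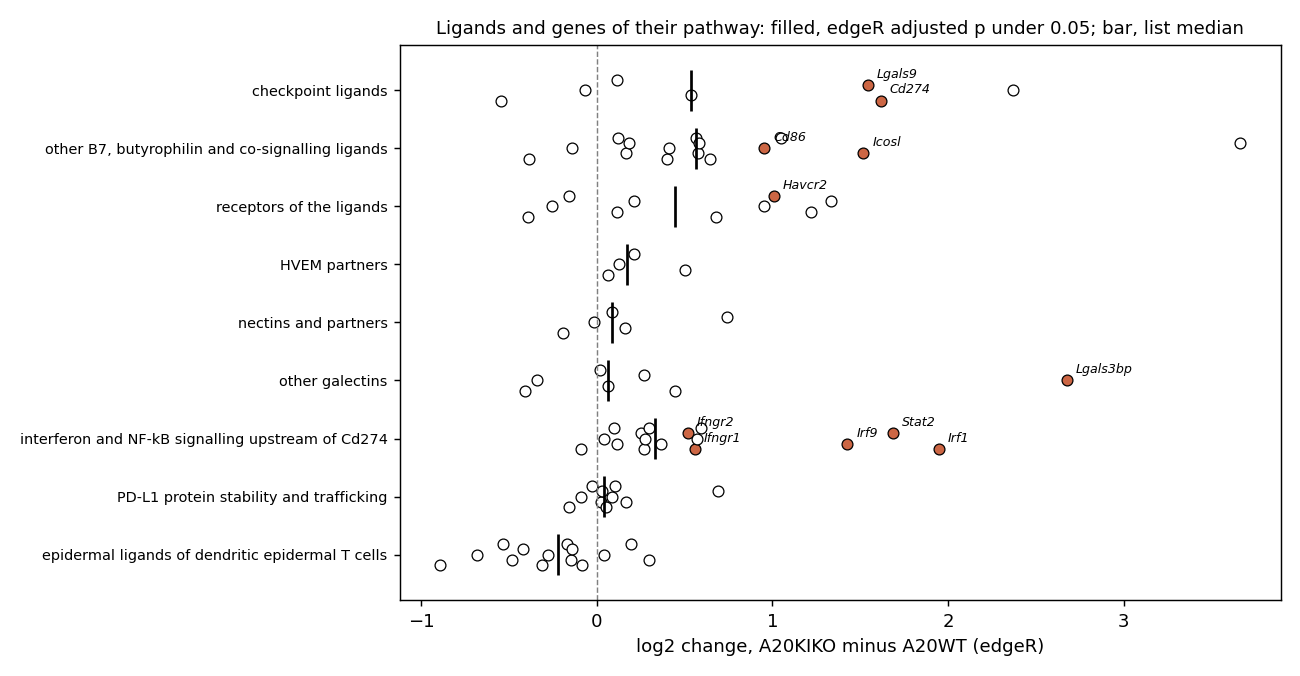
Log2 change (A20KIKO minus A20WT, x axis) of each tested gene in the ligand list and 8 lists of their pathway, with filled points for an edgeR adjusted p under 0.05 and a bar at the list median. Filled points all lie to the right of 0, and the lists of HVEM partners, nectins, PD-L1 stability and epidermal T cell ligands hold none.

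The A20KIKO libraries 1 and 4 were both above libraries 2 and 3 in 4 of the 7 ligands, namely Cd274, Lgals9, Cd276 and Pdcd1lg2, where this order held in 22.4% of all tested genes. Among the pathway lists it held in 12 of 15 further co-signalling ligands, 8 of 16 interferon and NF-kB genes, 4 of 7 galectin genes and 4 of 10 receptors. It also held in 4 of 10 PD-L1 stability genes and 4 of 14 epidermal T cell ligands. In 0 of 5 nectins and partners and 0 of 4 HVEM partner and lymphotoxin genes was this order seen. Libraries 1 and 4 were also the deeper ones, with 86290868 and 89106039 summed counts against 58156350 and 40451075, and the part of depth in this order was not tested. With counts thinned to the smallest library the ligands called were again 2, of 5 that passed the filter. This count compares the groups and cannot show whether depth shaped the order within A20KIKO.

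Some markers of monocytes and macrophages were higher in A20KIKO. In these bulk samples more cells of a type and more RNA per cell cannot be told apart. Of 9 tested monocyte and macrophage markers in a list of 12, 4 rose and 0 fell (C1qa, C1qb, C1qc and Ly6c2), with a median log2 change of 2.19. Their summed level was 30.0 to 123 CPM in A20KIKO and 22.3 to 30.0 CPM in A20WT, so the lowest A20KIKO library, mouse 2, met the highest A20WT library at this precision. Cd274 in A20KIKO mouse 2 was 14.2 CPM, above all A20WT libraries, and Lgals9 was 110 CPM. The Langerhans cell list held 0 called genes of 10, with summed levels of 3053 to 3400 and 2519 to 3305 CPM in A20KIKO and A20WT. Cd207, the Langerhans cell lectin, had 72.8 ± 6.32 and 63.7 ± 4.70 CPM (SD, n = 4 each, edgeR adjusted p = 0.431). The T cell list held 0 called of 14 (190 to 202 and 170 to 205 CPM) and the list shared by leukocytes 0 of 7 (223 to 365 and 166 to 248 CPM). Higher in every A20KIKO library were 3 of the 10 Langerhans, 2 of the 14 T cell and 2 of the 7 leukocyte markers. This held in 5.78% of all tested genes. In each of these 3 lists 0 markers lay lower in every A20KIKO library. The part of macrophages in the rise of Cd274, Lgals9 and Havcr2 was not tested.

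The remaining marker lists held few called genes. The keratinocyte list held 1 fallen gene of 10, Krt5, and the sebaceous list 1 risen gene of 5, Elovl3. None was called among 6 dendritic, 5 NK, 1 B cell, 2 neutrophil, 1 mast cell or granulocyte, 7 melanocyte, 5 fibroblast, 4 endothelial and mural and 4 chondrocyte and muscle markers tested with edgeR. Lower in every A20KIKO library were 3 of the 5 fibroblast markers and higher 0, against 4.79% and 5.78% of all tested genes. The median log2 change was -1.56 for the fibroblast, -1.40 for the chondrocyte and muscle and 1.25 for the melanocyte markers. The fibroblast list had summed levels of 15.3 to 36.7 CPM in A20KIKO and 39.7 to 55.3 CPM in A20WT, the melanocyte list 48.0 to 226 and 43.7 to 59.1 CPM, and the mast cell and granulocyte list 2.99 to 5.52 and 1.39 to 2.84 CPM. Their part in the ligand changes was not tested. Clec9a, Pax5, Elane and Fcer1a had 0 counts in all 8 libraries.

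**Figure D4:**
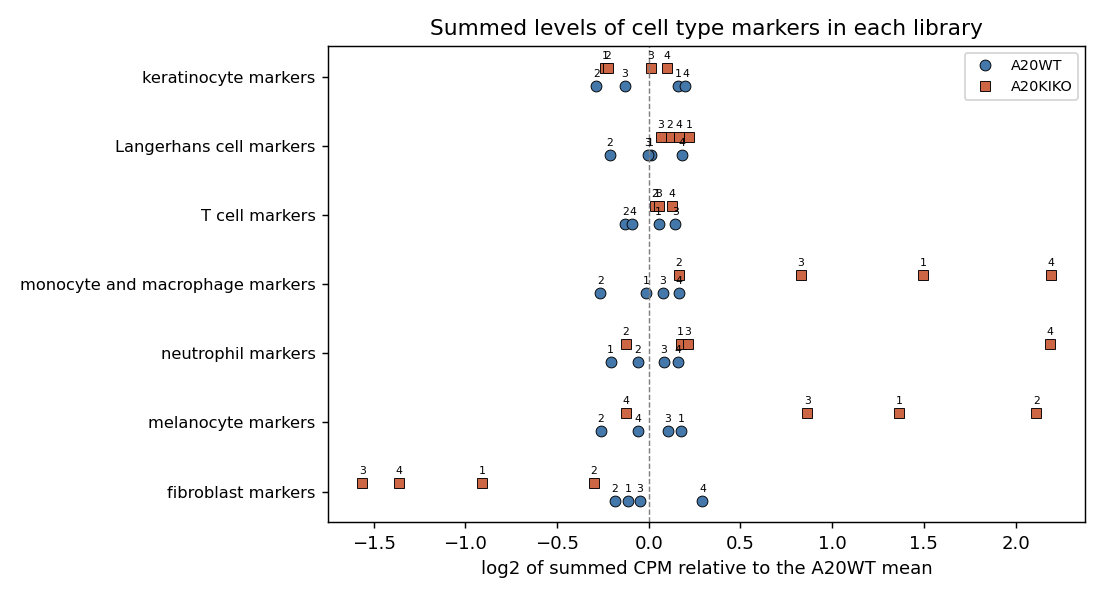
Log2 of the summed CPM of 7 of the marker lists relative to the A20WT mean (x axis), with 1 point per library numbered by mouse. The monocyte and macrophage sums of A20KIKO mice 1, 3 and 4 lie to the right of all A20WT points, while the Langerhans and T cell sums of the groups overlap.

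The tested genes most like each ligand across the 8 libraries were found by Pearson's r of log2 CPM, over genes averaging 5 CPM or more. These r values describe the pattern over both groups and include the difference between them. Nearest to Cd274 were Nlrc5, an activator of MHC class I genes (r = 0.986, Spearman's rho 0.976), the plasminogen activator Plat (0.983) and the peptide transporter Slc15a1 (0.981). Nearest to Lgals9 were Ly6e (r = 0.990, rho 0.952), Ogfr (0.987) and Ifi27l2a (0.987), and nearest to Cd276 were Sec14l2 (0.986), Synpo (0.979) and Gbp7 (0.978). The neighbours of Nectin2 were Wdr91 (0.963), Socs5 (0.941) and Arhgef2 (0.931), and those of Pvr were Ptpn23, Lacc1 and Rprd2 (0.873 to 0.855). For the sparse Tnfrsf14 these were Brip1, Snhg17 and Prkar1a (0.963 to 0.951), and for Pdcd1lg2 Fdps, Tdh and Slc27a3 (0.968 to 0.933). Among the ligands themselves, r was 0.93 between Cd274 and Cd276 and 0.84 between Cd274 and Lgals9, but -0.30 between Cd274 and its neighbour Pdcd1lg2.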

How the data were processed

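For each of the 8 libraries the authors deposited unnormalised counts of mouse Ensembl genes, with a column for each of 2 lanes. Builds GRCm38.p5 and GRCh38, STAR 2.4.2a, Picard 1.139 and HTSeq 0.6.1p1 appear in the submitters' processing notes. Their roles and the counting options are not stated there. Per the labels, libraries were made with SMART-Seq v4 and Nextera kits. These kits mark neither strand nor single molecules. Counts of a gene in its 2 lanes differed more than sampling allows (chi-square per gene 2.48 to 2.75 by library), and summed counts exceeded the number of reads the labels state, so a count is not an independent fragment. The p-values rest on the spread between mice.

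Lanes were summed. Genes were kept by filterByExpr (minimum count 10, total 15), which left 16512. Counts were scaled by TMM and fitted with edgeR 4.0.16 (R 4.3.3) quasi-likelihood, robust dispersions, group as the only term. A gene was called at a two-sided Benjamini-Hochberg adjusted p under 0.05. CPM use the TMM-scaled library size, and log2 CPM a prior count of 2. SE is the absolute log2 change over the square root of F, and intervals use 6 degrees of freedom. Lengths and coordinates are from GENCODE mouse M21 (GRCm38). Of the 7 ligands, 6 had a RefSeq promoter.

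Ligands and lists (8 pathway, 15 cell type) were chosen with earlier results of these data known, and 1 gene of the lists is not reported here. The rule named all 7 ligands, up to 3 called genes per pathway list (or the 2 most abundant), and the 3 genes most like each ligand. Alternatives were other size factors, 2 other count filters, DESeq2 1.42.0, limma-voom (limma 3.58.1), non-robust dispersions, the replicate number as a block, each lane alone, counts thinned to the smallest library, and each library left out. The fit was tested on simulated counts. Plots used Matplotlib 3.10.9.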

Additional observations from a re-analysis of the deposited data

Results flagged for a closer look

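In groups of 4 libraries, 50 in all, 3 held a library whose gap to the nearest other passed Dixon's 95% critical value of 0.829, and chance alone flags about 1 in 20 groups. For Pdcd1lg2 the library of A20KIKO mouse 4 was high at 0.672 CPM, with the other A20KIKO libraries at 0.0519 to 0.129 CPM. Pvr had 2.43 CPM in A20WT mouse 2 and 1.73 to 1.81 CPM in the other A20WT libraries. Stat2 had 13.8 CPM in A20WT mouse 1 and 22.2 to 23.2 CPM in the other A20WT libraries.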

How the results depend on the processing

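Cd274 and Lgals9 were called in each of 19 alternative settings, with log2 changes of 1.41 to 1.84 and 1.34 to 1.69 when a single library was left out. The ligands called were 2 with each library left out and 4 with DESeq2, which added Tnfrsf14 (log2 change 2.42) and Cd276 (0.54), and in the other settings 2. With DESeq2 too, Tnfrsf14 passed the filter on low counts through its A20KIKO libraries alone. Its call there is not separate evidence of a rise. Over all genes the calls numbered 576, with 1133 by DESeq2, 374 at 5 CPM in 4 libraries, and 348 to 619 with a library left out (348 without A20KIKO mouse 1 and 355 without A20WT mouse 3). The cause of these differences was not tested, except that the stricter filter tested 10328 genes. Signs turned for values near 0: Pvr had 0.20 in lane 1 alone and -0.21 to 0.064 with a library left out. Spop had -0.014 with upper-quartile factors and -0.029 to 0.073, Plxnb2 -0.12 to 0.16 and Skint9 -0.21 to 0.028 with a library left out. The difference in the Pvr to Nectin2 log2 ratio was 0.077 in lane 1 alone. The Cd274 to Pdcd1lg2 ratio was not computed per lane, since a lane held no count of Pdcd1lg2. Per kb of the longest transcript, the A20WT levels were 35.0 (Lgals9), 36.3 (Nectin2) and 0.663 (Pvr). Low counts limit Tnfrsf14 and Pdcd1lg2, which passed the filter in 13 and 15 of the 19 settings.

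Deviations of same-numbered libraries correlated at 0.0593, 0.190, -0.0949 and 0.539 for numbers 1 to 4, and only A20KIKO mouse 4 correlated best with its own number. With so few libraries these correlations cannot decide whether equal numbers mark pairs. With the replicate block 551 genes and 2 ligands were called, and the log2 change was 1.66 for Cd274 (adjusted p = 0.0402) and 1.49 for Lgals9. The block changed the call of no ligand.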
